A study of Mus musculus with 6 samples.

Results

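Lep and Slc2a5 are a pair of genes expressed in fat cells, though Slc2a5 is best known from the small intestine. Their 5′ regions were measured in DNA of whole quadriceps muscle by reduced representation bisulfite sequencing (RRBS). RRBS sequences the ends of restriction fragments after bisulfite treatment, which turns unmethylated but not methylated cytosines into T. The members are the rows of the deposited table keyed by a RefSeq transcript of Lep (NM_008493) or Slc2a5 (NM_019741): 9 cytosine positions in 2 regions, 5 in Lep and 4 in Slc2a5, of 268725 positions in 10755 regions of 3000 bases. Both genes were chosen by their methylation level in these samples, and the group differences of their regions were known when they were chosen. Their high level is therefore a description here and not a finding.

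The samples are 3 of exercised and 3 of sedentary C57BL/6 mice. Exercised mice ran on a motorised treadmill over 4 weeks, sedentary mice served as controls, and DNA was isolated 3 hours after the final bout. No allele, transgene or drug is named for either group, and the labels give no age. They do not say that samples of a group are separate animals, so a p-value here rests on a spread that may be technical. The median coverage of a position was 45 to 59 reads in 5 samples and 27 in sedentary sample 3.

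Leptin, the product of Lep, is a hormone that white fat cells secrete in proportion to fat stores. It acts through its receptor (Lepr) and the kinase JAK2 on STAT3, in the hypothalamus to restrain feeding and in muscle on fatty acid oxidation, and SOCS3 and PTP1B dampen the signal. Slc2a5 encodes GLUT5, a facilitative transporter with a high preference for fructose, abundant in small intestine and also present in muscle and fat cells. Methylation of CpG dinucleotides at a promoter often accompanies low transcription of its gene, and genes used in few tissues are often methylated where they are not used. Neither RNA nor separated cells were measured here. In DNA of whole muscle, a change in the share of a cell type and a change of methylation within a cell type cannot be told apart.

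The Lep region lies on chromosome 6 from 29008221 to 29011220 (mm9), and its 5 positions surround the transcription start. Taking the gene start as 2000 bases into the region, the listed positions lie 213, 199 and 181 bases before the start, 2 bases before it and 36 bases after it. This placing puts all 5 on a CpG of the RefSeq promoter of Lep (GRCm38.p6). It is the only 1 of the 49 placings of these positions within the 300-base promoter sequence that does so, and the next best puts 3 on a CpG. The 250 bases before the start are printed because they hold 4 of the 5 measured CpGs, which are in capitals, 5′ to 3′ on the strand of the gene (plus strand, chr6:29059971-29060220 in GRCm38.p6).

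Lep promoter: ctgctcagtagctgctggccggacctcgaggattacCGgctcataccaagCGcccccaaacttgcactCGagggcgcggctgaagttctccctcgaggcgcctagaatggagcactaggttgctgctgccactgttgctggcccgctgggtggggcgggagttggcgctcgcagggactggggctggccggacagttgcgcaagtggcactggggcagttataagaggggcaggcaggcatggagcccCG

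The first 3 capital pairs were read on the strand opposite to the gene, and the last pair, like the CpG after the start, on the strand of the gene. The full 300-base sequence holds 19 CpGs, against a median of 7 over all 32851 RefSeq promoter sequences, so that most Lep CpGs were not among the listed positions. A match to TTGCGCAA, a binding sequence of the adipocyte factor C/EBP, begins 55 bases before the start and is present in 0.183% of all promoter sequences. A GC box of the factor Sp1 (GGGCGG, on either strand) begins 98 bases before the start and is present in 35.7% of them. The TATA letters TATAA have 2 overlapping matches, which begin 32 and 31 bases before the start (24.9% of all promoter sequences have a match). The E-box CACGTG has no match in the Lep sequence and is in 7.15% of all. No listed position lies inside these matches, so the methylation of the CpG within the C/EBP match was not measured.

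Of the 5 Lep positions, 3 lie within CCGG, the sequence cut by MspI, the enzyme commonly used in RRBS. These are the positions 213 and 2 bases before and 36 bases after the start, while the CpGs at 199 and 181 bases before it lie outside CCGG. The distinction bears on how the levels are read. In the 2330 promoter regions in which at least 3 positions were placed and every one fell on a CpG (74.7% of 3121), 7471 positions inside CCGG had a median level of 69.1% and 22122 positions outside it a median of 1.47%. Of those inside, 39.2% stood at 90% or more, against 1.65% of those outside. The Lep CpGs outside CCGG, at means of 46.9% and 48.0% over the 6 samples, are at 40% or more, as were 2.59% of all such promoter positions. The gap between the kinds of position was not seen in the 46 promoters whose median outside CCGG was 40% or more, where means were 68.0% inside and 68.1% outside CCGG. Those promoters were chosen by the level outside, of which 79.7% of positions stood at 40% or more. The 3 inside stood at 100%, 74.1% and 98.0%, and 63.0% of all positions inside CCGG stood at 40% or more. The part that the cut site has in these 3 levels was not tested.

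**Figure D1:**
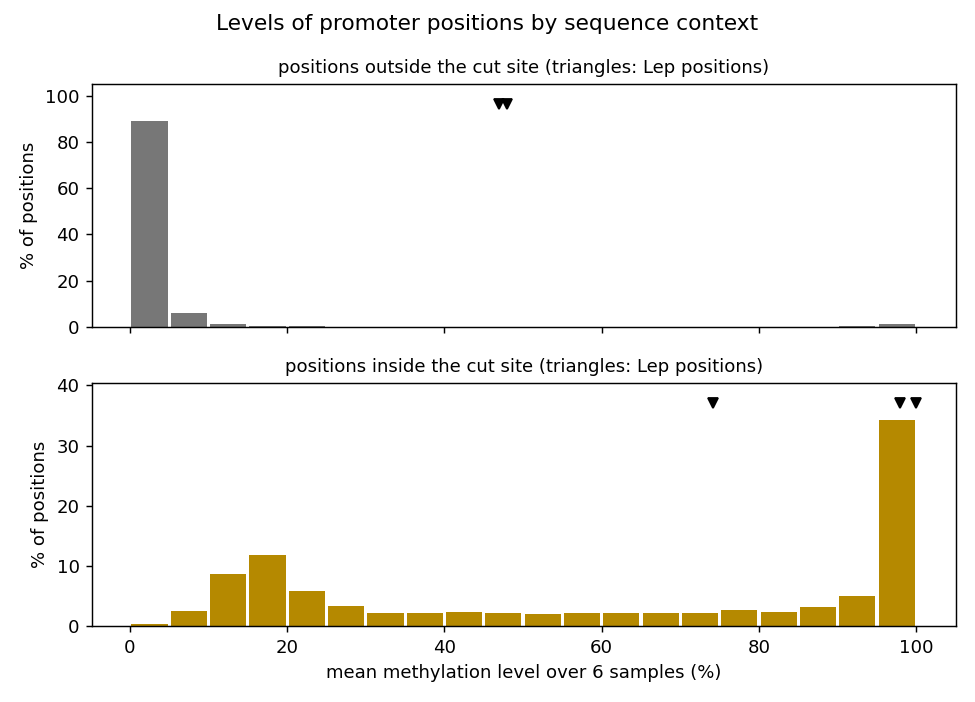
Share of promoter positions (%, vertical axis) in bins of 5 points of mean methylation level over the 6 samples (%, horizontal axis), for 22122 positions outside (top) and 7471 inside (bottom) the cut site, with triangles for the Lep positions. Most positions outside the cut site lie under 10% and the Lep pair near 47% and 48%, whereas positions inside pile up at 90% or more, where 2 of the 3 Lep positions lie.

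The most upstream Lep position (29010008, 213 bases before the start) was called fully methylated in every sample. All 329 reads over the 6 samples carried a methylated call, which allows an unmethylated share of up to 0.912% of reads from counting alone. The position 36 bases after the start (29010257) was at 100% in 4 samples, at 94.9% in exercised sample 2 and at 92.9% in sedentary sample 1. Neither position separated the groups, and both leave little room for a change. Both lie inside CCGG, and the part of the cut site in their levels was not tested.

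Between them, the 3 other Lep positions varied widely from sample to sample. The CpG 199 bases before the start (29010022) was methylated at 28.3%, 39.0% and 65.2% in the exercised samples, in order of their number, and at 41.0%, 44.2% and 63.9% in the sedentary ones. Its highest values came from the sample numbered 3 of each group, and the groups overlapped, with a difference of -5.56 percentage points (SE 13.1). The CpG 181 bases before the start (29010040) stood at 31.4%, 36.3% and 54.4% in exercised samples and at 46.8%, 69.1% and 50% in sedentary samples. Exercised samples 1 and 2 were the lowest of the 6 here, and exercised sample 3 lay among the sedentary samples, for a difference of -14.6 points (SE 9.89).

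At the CpG 2 bases before the start (29010219), inside CCGG, the exercised samples stood at 56.7%, 73.7% and 66.7% and the sedentary samples at 73.8%, 94.0% and 80.0%. All exercised samples lay below all sedentary samples, though exercised sample 2 and sedentary sample 1 were nearly equal, and the difference was -16.9 points (SE 7.74, edgeR adjusted p = 0.841, exact permutation p = 0.1, the smallest that 3 against 3 samples allow). The spread of these 3 positions within groups exceeded counting error. The variance was 5.55, 3.92 and 3.52 times that of binomial sampling, in order from the most upstream.

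Summed over the 5 positions, the Lep region was methylated at 60.7% (95% Wilson interval 54.4 to 66.6), 65.3% (60.0 to 70.2) and 74.6% (68.9 to 79.6) in exercised samples 1 to 3. In sedentary samples 1 to 3 it stood at 66.7% (60.8 to 72.0), 82.3% (77.4 to 86.3) and 75.7% (68.2 to 81.9). Exercised samples 1 and 2 were the lowest of the 6 and sedentary sample 2 the highest, and the groups overlapped. The means were 66.8% ± 7.10 and 74.9% ± 7.83 (SD, n = 3 each), a difference of -8.03 points (SE 6.11, edgeR adjusted p = 1.0, two-sided exact permutation p = 0.2). These intervals cover counting error only and are too narrow, because a read that spans several positions is counted at each of them.

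The size of the Lep difference rested on single samples and on the near-full positions, while its sign did not turn in the alternatives run. Leaving out sedentary sample 2 gave -4.33 points, leaving out exercised sample 1 gave -4.94, and leaving out sedentary sample 1 gave -12.1. Without the positions at a mean of 90% or more it was -13.3 points, at 49.5% ± 10.7 against 62.7% ± 11.6. At the 2 positions outside CCGG it was -11.1 points, at 42.4% ± 15.5 against 53.5% ± 8.18 (exact permutation p = 0.4), and at the 3 inside -5.91 points (exact permutation p = 0.3).

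**Figure D2:**
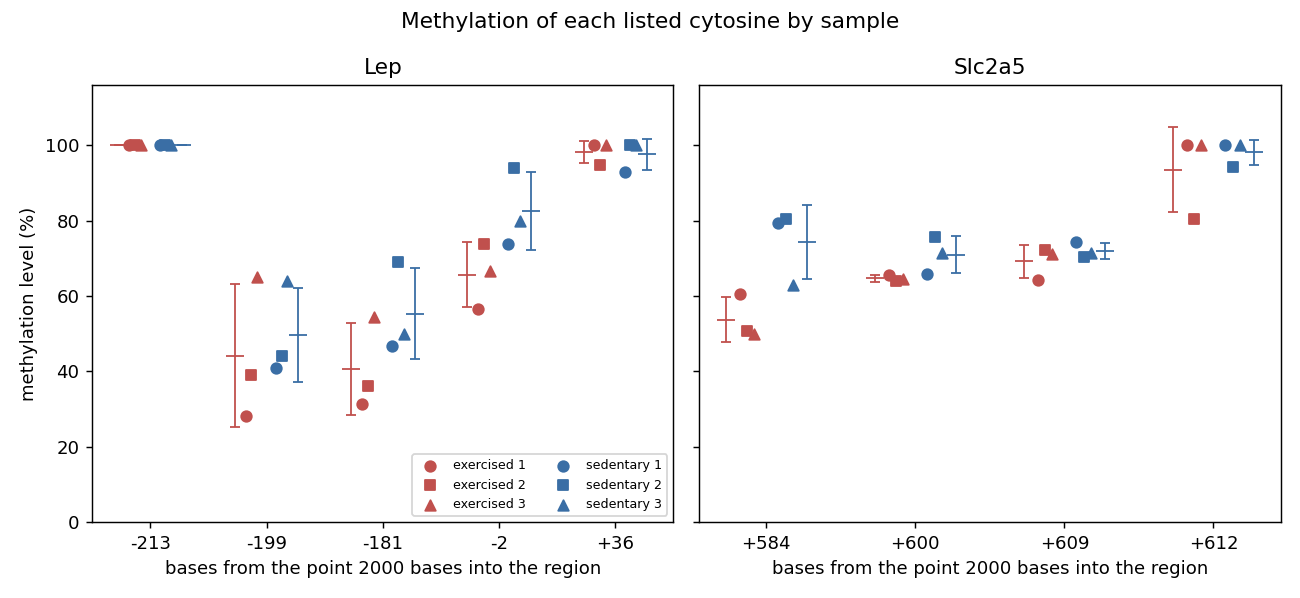
Methylation level (%, vertical axis) of each listed cytosine of Lep and Slc2a5, ordered along the region and labelled by bases from the point 2000 bases into it, with 1 symbol per sample and bars for the group mean ± SD (n = 3). In Lep the outer positions lie near 100% and the inner ones spread from 28.3% to 94.0%, and in Slc2a5 the first position shows the widest gap between the groups.

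The 4 Slc2a5 positions lie within 28 bases on chromosome 4 (149494037, 149494053, 149494062 and 149494065, mm9), 584 to 612 bases beyond the point 2000 bases into the region (149491453 to 149494452). They fall outside the RefSeq promoter sequence of Slc2a5, where no placing puts more than 2 of them on a CpG. Whether any of them lies in CCGG is therefore not known here, and no Slc2a5 sequence is printed. Within each sample the coverage of the 4 positions differed by at most 2 reads, so that they are largely read by the same molecules and are not independent of each other.

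The first Slc2a5 position (149494037) stood at 60.6%, 50.7% and 50% in the exercised samples and at 79.5%, 80.6% and 63.0% in the sedentary ones. All exercised samples lay below all sedentary samples, and exercised sample 1 and sedentary sample 3 were the nearest pair. The difference was -20.6 points (SE 6.64, edgeR adjusted p = 0.841, exact permutation p = 0.1). The authors' deposited table gives this position the class of strong hypomethylation with an unadjusted p of 0.0364, and classes the other member positions with a p as insignificant. Of the 253960 positions with a p, 0.983% were lower in exercised samples at an unadjusted p under 0.05.

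The next position (149494053) was at 65.7%, 63.9% and 64.4% in exercised and at 65.8%, 75.7% and 71.4% in sedentary samples. The groups were apart, although exercised sample 1 and sedentary sample 1 were nearly equal, and the difference was -6.30 points (SE 2.91). Position 149494062 was at 64.2%, 72.2% and 71.1% in exercised and 74.4%, 70.3% and 71.4% in sedentary samples, with overlapping groups and a difference of -2.85 points (SE 2.80). At these 2 positions the variance within groups was 0.236 and 0.335 times that of binomial sampling, below counting error. At the first position it was 1.22 times. The last position (149494065) was at 100% in 4 samples, at 80.6% in exercised sample 2 and at 94.3% in sedentary sample 2. Its difference was -4.58 points (SE 6.76). The variance within groups there was 6.87 times that of binomial sampling, above that of any Lep position.

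The Slc2a5 region stood at 72.7% (95% Wilson interval 67.0 to 77.7), 66.9% (61.3 to 72.1) and 71.5% (64.5 to 77.6) in exercised samples 1 to 3. It stood at 80.0% (73.0 to 85.5), 80.0% (72.8 to 85.7) and 76.6% (67.9 to 83.5) in sedentary samples 1 to 3. Every exercised sample lay below every sedentary sample, at 70.4% ± 3.05 against 78.9% ± 1.98 (SD, n = 3 each). The difference was -8.50 points (SE 2.1), with an unadjusted edgeR p of 0.00608, an adjusted p of 1.0 and a two-sided exact permutation p of 0.1.

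Slc2a5 thus failed the correction over all regions, and its difference rested in large part on 1 position. Without the first position it was -4.53 points, at 75.8% ± 3.23 against 80.3% ± 0.581, and without the last, which is at 90% or more, it was -9.88 points, at 62.6% ± 0.812 against 72.5% ± 3.46. The groups stayed apart in both. Coverage moved with the group as well: Slc2a5 had 66.8, 71.8 and 44.8 reads per position in the exercised samples and 38.8, 36.3 and 27.8 in the sedentary ones. Relative to the total coverage of each sample the groups overlapped. The part of coverage in the result was not tested. Lep coverage overlapped between the groups, at 47.8 to 66.2 and 29.6 to 56.4 reads per position.

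**Figure D3:**
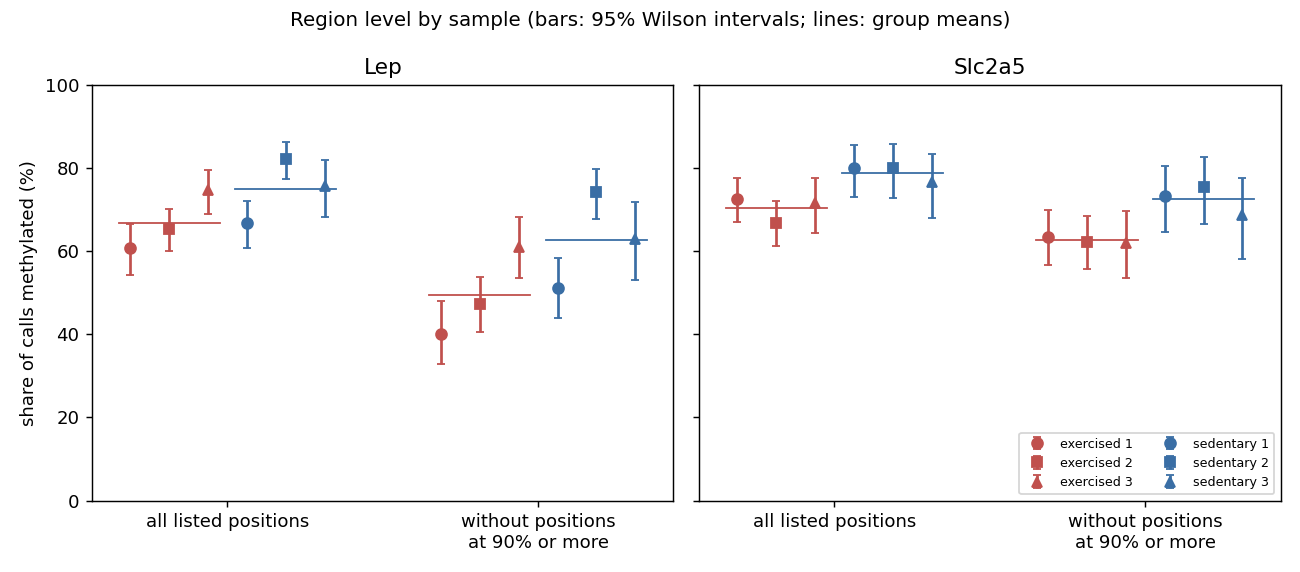
Share of methylated calls (%, vertical axis) in the Lep and Slc2a5 regions of each sample, over all listed positions and without those at a mean of 90% or more, with 95% Wilson intervals (counting error only) and horizontal lines for group means. The Lep groups overlap in both versions, and the 3 exercised Slc2a5 samples lie below the 3 sedentary samples in both.

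**Figure D4:**
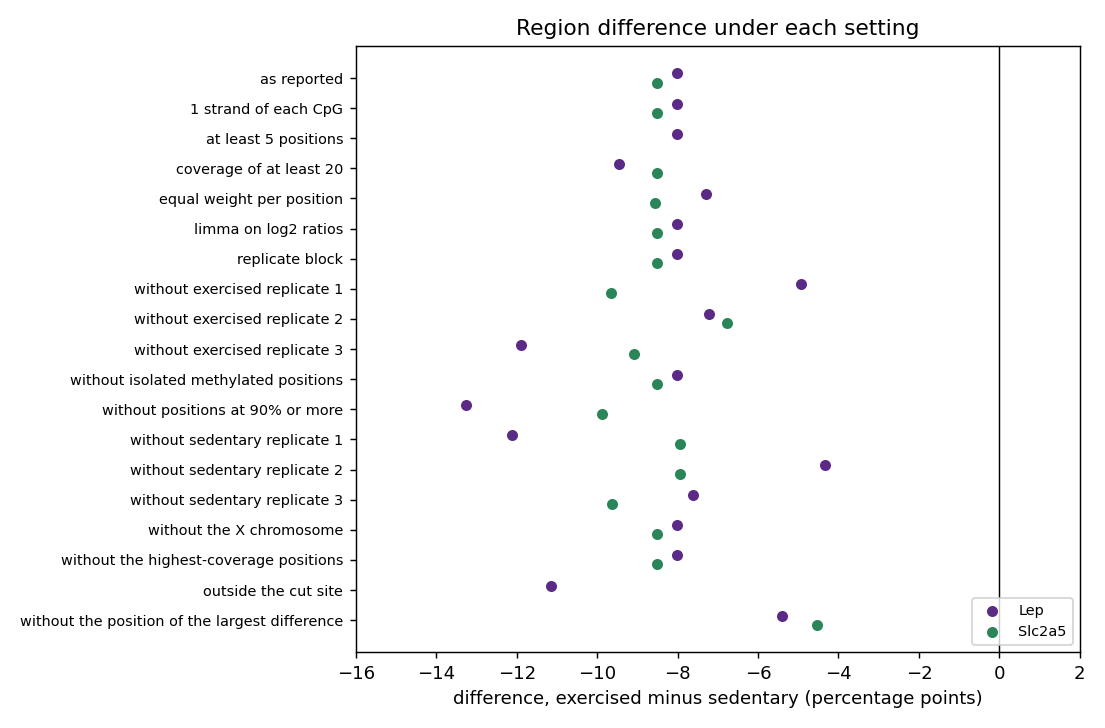
Difference of the Lep and Slc2a5 regions (exercised minus sedentary, percentage points, horizontal axis) in each alternative (vertical axis), with the reported value at the top. All values lie below 0, from -13.3 to -4.33 points for Lep and from -9.88 to -4.53 points for Slc2a5.

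Read against the whole table, neither gene passed a test. edgeR's quasi-likelihood test called 0 of 10021 gene regions at an adjusted p under 0.05 (0%), 253 at an unadjusted p under 0.05, and limma likewise called 0 and 283. Of the 2 members, Slc2a5 was among the regions with an unadjusted p under 0.05 and a lower level in exercised samples, a background of 0.968% of regions, and Lep was not. Slc2a5 was also among the regions with all exercised samples below all sedentary samples, which were 2.35% of those tested. At single positions edgeR called 0 of 253960 (0%), with 12435 at an unadjusted p under 0.05, and limma 0 and 9068. Of the 8 member positions tested (the fully methylated Lep position could not be), 3 had groups that were apart with exercised lower, 1 in Lep and 2 in Slc2a5, where 2.15% of all positions did. The smallest adjusted edgeR p among them was 0.841.

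The genes differed in how steady they were across samples. Among the 428 regions at a level of 50% to 90%, the median within-group SD was 5.54 points. That of Lep was 7.48 points, above 72.9% of them, and that of Slc2a5 was 2.57 points, above 6.78%, at 50.9 and 47.7 reads per position. Their absolute differences exceeded 90.2% and 92.1% of those regions. The median difference was -0.356 points over these regions and 0.390 points over all regions tested.

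The regions most like Lep in level over the 6 samples were those of Mark2, a microtubule affinity-regulating kinase (root mean square distance 5.76 points), 1700067K01Rik (6.37) and Paqr7, a membrane progestin receptor (6.70). Mark2 was lower in exercised samples by a mean of -12.4 points, while 1700067K01Rik and Paqr7 differed by 0.458 and 2.25 points, signs that turned in some alternatives. The regions closest to Slc2a5 were those of Lactbl1 (2.25 points), Gm128 (3.62) and Kcng1, a potassium channel subunit (4.28), with differences of -5.40, -6.12 and -2.89 points. The distance is taken over the levels of all 6 samples, so the gap between the groups enters it. A difference of the same sign is thus favoured by the choice and is no separate result. Lactbl1 differed by -2.91 points without exercised sample 2, Gm128 by -11.5 without positions at 90% or more, and Kcng1 by -0.503 without sedentary sample 1 and -6.07 without sedentary sample 3. None of the 6 passed the edgeR test over all regions (adjusted p = 1.0 each).

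Of 34 genes of leptin signalling listed, 20 were measured, in 21 regions. Of these, 12 were higher and 9 lower in exercised samples (over all tested regions 39.0% were lower). With 0 past the adjusted test, their median difference was 0.275 points, against 0.390 over all tested regions. Without positions at 90% or more the counts were 10 higher and 11 lower, so the list has no steady direction. The median position was under 10% in 18 of the 21 regions, close to the 80.8% of all regions tested, and 1 of them, Lep, had a level of 50% or more, as did 5.11% of all. Lepr, the receptor, and Socs3, the feedback inhibitor, were named after their values were seen. Lepr stood at 28.1% ± 5.70 against 28.3% ± 9.51, with a median position of 5.79%. Prkaa1, which encodes an AMPK alpha chain, had the smallest p of the list, at 15.3% ± 1.13 against 13.2% ± 0.0714 (edgeR adjusted p = 1.0). All exercised samples of Prkaa1 lay above all sedentary samples, an order whose share over all tested regions was not counted. It is therefore not read as a result. Socs3 stood at 25.7% ± 0.742 against 31.2% ± 4.24 (edgeR adjusted p = 1.0), and its difference went from -5.44 to -3.02 points without sedentary sample 3. All exercised samples of Socs3 lay below all sedentary samples, as in 2.35% of all regions tested.

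Among glucose transporters and genes of fructose handling, 15 of 30 genes were measured, each in 1 region. Of these regions 9 were higher and 6 lower (over all tested regions 39.0% were lower). With 0 past the adjusted test, their median difference was 0.590 points. Without sedentary sample 1 they were 12 higher and 3 lower, and without exercised sample 1 they were 7 higher and 8 lower. Slc2a5, which was chosen by its level, was the most methylated of them. Fbp2, the muscle fructose bisphosphatase, was the other one at 50% or more (57.2% over 4 positions). Of all regions tested, 5.11% stood at 50% or more. The related transporters are given by level for comparison, named after their values were seen. Slc2a1, Slc2a6, Slc2a8 and Slc2a13 had median positions of 2.75%, 2.08%, 4.20% and 1.39%, against 69.2% in Slc2a5. Slc2a3 and Slc2a10 lay between, at 18.4% and 13.2%. The 4 Slc2a5 positions lie within 28 bases and outside its promoter sequence. Slc2a1, Slc2a6, Slc2a8 and Slc2a13 hold 22, 14, 41 and 25 positions, and Slc2a3 and Slc2a10 hold 3 and 8. Where these lie relative to the gene start was not compared. The smallest p beside Slc2a5 was that of Akr1b3, the aldose reductase that starts fructose synthesis from glucose, with a difference of 1.89 points (edgeR adjusted p = 1.0). All exercised samples of Akr1b3 lay above all sedentary samples. How many of all tested regions share this order was not counted, so it is not read as a result. Over all 206 measured regions of Slc transporter genes, 123 were higher and 83 (40.3%) lower, 2 had a larger negative difference than Slc2a5, and 0 passed the adjusted test.

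Of 18 adipocyte marker genes 9 were measured, each in 1 region, with 3 higher and 6 lower in exercised samples, 0 past the adjusted test and a median difference of -0.389 points. Over all tested regions 39.0% were lower. Without exercised sample 2, and likewise without sedentary sample 2, 5 were higher and 4 lower, so this list has no steady direction either. Fabp4, the fatty acid-binding protein of fat cells, stood at 74.7% over 3 positions, close to Lep at 70.9%. Ucp1, the uncoupling protein of brown fat, stood at 54.0%, also over 3 positions. The median positions of Fabp4 and Ucp1 were at 68.0% and 32.2%. With Lep, these were the 3 regions of the list at 50% or more, as were 5.11% of all regions tested. Dgat2, which makes triglyceride, had the smallest p of the list, with a difference of 5.76 points (edgeR adjusted p = 1.0) that was 1.46 points without exercised sample 1 and 8.93 without exercised sample 3. Pparg and Cebpa, the regulators of fat cell formation, named after their values were seen, stood at 19.4% and 16.0%. Their median positions were at 2.29% and 2.08%. They were the only 2 of the 9 regions with a median position under 10%, against 80.8% of all regions tested. Levels of the 9 regions ranged from 16.0% to 74.7%. Markers of skeletal muscle, endothelial cells, fibroblasts and leukocytes gave 2, 5, 3 and 2 regions, too few to check the tissue from methylation, with 0 past the test. Acta1, the actin of skeletal muscle, stood at 72.3% in muscle DNA over 3 positions, with SDs of 18.1 (exercised) and 28.6 (sedentary) points. The other muscle region stood at 28.0%. Of the endothelial markers, Egfl7, a secreted vessel protein, stood at 68.7% in 1 of its 2 regions and Esam, an adhesion molecule, at 50.6%. These markers are named only because they stood at 50% or more, and the lowest of the 5 endothelial regions stood at 22.3%. The part of cell type shares in the Lep and Slc2a5 differences was not tested.

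**Figure D5:**
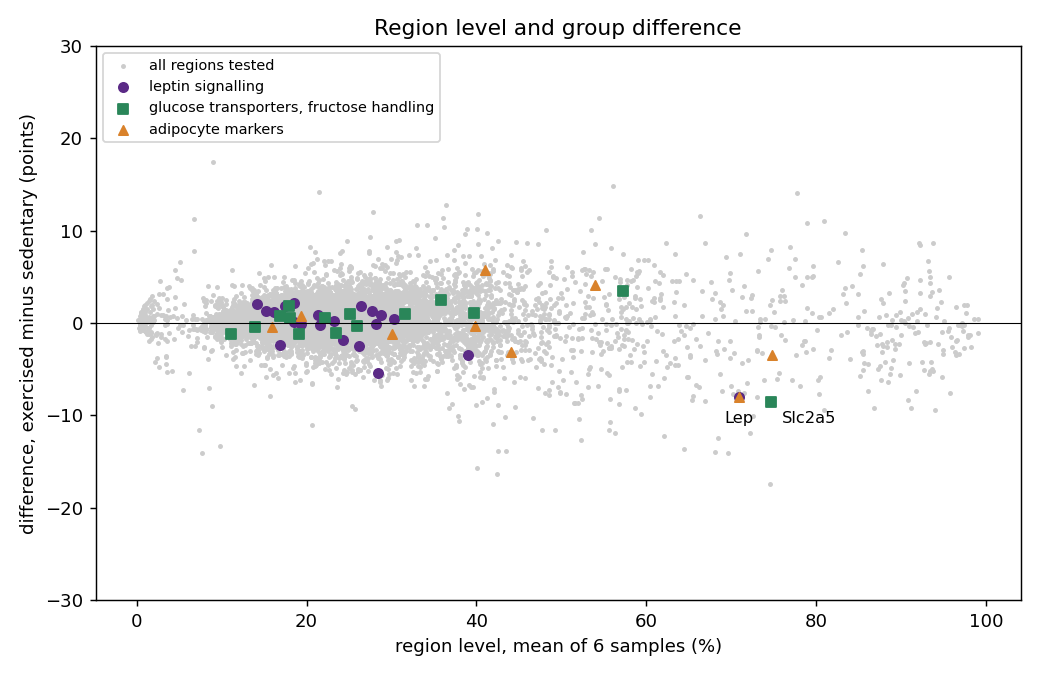
Difference between group means (exercised minus sedentary, percentage points, vertical axis) against the level of a region (mean of 6 samples, %, horizontal axis) for 10021 tested regions in grey and 3 gene lists in colour. Lep and Slc2a5 lie at 70.9% and 74.6% with differences of -8.03 and -8.50 points, to the right of most other list members.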

How the data were processed

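DNA methylation was measured by RRBS in 3 exercised and 3 sedentary samples. Bismark 0.7.7, Bowtie 0.12.9, cutadapt 1.0, Trim Galore 0.2.5 and the build mm9 are listed in the submitters' processing notes. Their roles and settings are not stated there. The authors deposited 1 table with the methylated fraction of each position and the count of reads that cover it (at least 10 in every sample), and a difference of means, a p-value and a class. Fraction times count was whole within 0.00236 of a read and gave methylated and unmethylated reads. Total coverage was 9153526 to 18656340 calls.

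Counts were summed by region (at least 3 positions) and tested with edgeR 4.0.16 (R 4.3.3): a term per sample, a group term on methylated counts, 1 common prior without trend, Benjamini-Hochberg adjustment over the whole table at 0.05. limma 3.58.1 was the other tool, on log2((methylated + 2)/(unmethylated + 2)). Single values were compared by exact permutation over samples (Python 3.11.15, scipy 1.17.1). On 10016 simulated gene regions with spread between samples, 85% of changes of 20 points and 30% of changes of 10 points had an unadjusted p under 0.05, and 8 and 0 of 100 passed adjustment. Changes were placed only in well-covered regions of middle level, below the levels of Lep and Slc2a5. These shares therefore do not describe the 2 members.

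Symbols came from RefSeq (GRCm38.p6) for 10655 of 10755 transcripts. Promoter sequences are RefSeq's, placed by distance from the start only. Named genes are the members, the 3 regions of other genes (at least 5 positions) nearest to each in level, the list member with the smallest p in each of the leptin, fructose and adipocyte lists, and list members at 50% or more. Members and lists were chosen with earlier results of these data known. The alternatives that leave out positions at 90% or more, inside CCGG or of the largest difference were chosen after seeing the data.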

Additional observations from a re-analysis of the deposited data

How the results depend on the processing

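The differences of both regions stayed below 0 and short of an adjusted p under 0.05 in the alternatives run for them (the versions of fewer than 3 positions or without 1 chosen position have no edgeR test). Lep ranged from -13.3 to -4.33 points and Slc2a5 from -9.88 to -4.53, and leaving out 1 sample gave -12.1 to -4.33 and -9.66 to -6.78. Calls stayed at 0 regions and 0 member positions. With 5 positions required, Slc2a5 was not tested. The unadjusted edgeR p of Slc2a5 moved from 0.00608 to 0.102 when isolated methylated positions were left out of other regions, although its own positions and difference did not change (exact permutation p = 0.1 in both). The difference of 1700067K01Rik turned to -4.80 points and that of Paqr7 to -7.74 at positions covered at least 20 times. Leaving out 1 sample gave 1700067K01Rik -2.26 to 1.99 points, with -2.26 without sedentary sample 1, -0.504 without exercised sample 2 and -0.0601 without exercised sample 3, and Paqr7 -1.07 (without sedentary sample 1) to 6.84. The difference of Lepr, near 0, turned to 1.25 points at that coverage, to 0.125 without positions at 90% or more, and ranged from -4.68 to 4.80 without 1 sample, with 2.54, 0.205 and 4.80 without exercised sample 2, exercised sample 3 and sedentary sample 1. The cause was not tested. No pairing by the numbers in the sample titles was seen. Deviations of region levels correlated at 0.0190, -0.219 and -0.111 between samples numbered 1, 2 and 3. Not every sample correlated best with its own number (exercised sample 2 did so with sedentary sample 3, and sedentary sample 1 with exercised sample 2). With 3 samples per group, these correlations cannot exclude a pairing of weak effect. With the number as a replicate block, the differences are the same -8.03 and -8.50 points by construction, with 0 regions called. Depth limits single positions most, where 95% Wilson intervals spanned up to 34.2 points.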
